A study of Homo sapiens with 24 samples.

Results

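The tumour necrosis factor (TNF) family was followed here through 10 genes, taken as the rows of the deposited non-normalized array table named LTB, TNFSF10, TNFRSF1A, TNFRSF1B, TNFRSF10B, TNFRSF12A, TNFRSF21, TRAF1, BIRC3 and TNFAIP2, out of 34595 rows. They comprise 2 ligands, 5 receptors, 1 adaptor, 1 inhibitor of apoptosis and 1 gene named for its induction by TNF. The study profiled the pancreatic cancer cell lines Panc1 and Capan1 on Illumina bead arrays, 24 in all, with 2 arrays in each of 12 groups. In each line, untransduced cells received DMSO or 10 uM of a compound labelled only as an IRAK1/4 inhibitor, and RNA was taken after 24 h. The other 4 groups of each line carried 2 retroviral constructs: a puromycin vector with a scrambled sequence, shIRAK1 or shIRAK4 (selection at 1 ug/mL for 48 h), then a neomycin and GFP vector (geneticin at 500 ug/mL for 4 days). The second vector held the scrambled sequence in the scramble, shIRAK1 and shIRAK4 groups, and shIRAK4 in the cells that already carried shIRAK1, written shIRAK1+4 here. All cells grew in RPMI with 10% serum. The hairpin groups are drug-selected cultures with no stated clone, the hairpin sequences and the compound's name are not given in the sources used here, and the series' design text places the hairpins in Panc1 only although both lines have labelled hairpin arrays. The labels do not state if paired arrays stem from different cultures, and each p-value therefore measures the spread between these arrays, which may be technical.

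TNF family ligands bind receptors at the cell surface. Receptors with a death domain can recruit caspases, and most receptors recruit TRAF adaptors together with the ubiquitin ligases BIRC2 and BIRC3, which leads to NF-kappaB activity. IRAK4 and IRAK1 are kinases that act below Toll-like and interleukin-1 receptors and feed into the same transcription factor, and LTB, TRAF1, BIRC3 and TNFAIP2 are known as NF-kappaB responsive genes in other cells. NF-kappaB is often active in pancreatic carcinoma, where it is studied for its part in cell survival.

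The epithelial identity of the lines was checked first: EPCAM, KRT8, KRT18 and KRT19 were detected on all 12 arrays of either line, whereas CDH1, KRT7 and CLDN4 were so only in Capan1. Of 4 mesenchymal markers, VIM was detected on all arrays of Panc1 only, CDH2 on all arrays of both lines, and ZEB1 and FN1 on none. None of 10 lymphoid, 7 fibroblast and 6 endothelial markers was detected on all arrays of a line. The lowest and highest means of the lymphoid list over the groups were 4.49 and 4.54 in Panc1 and 4.59 and 4.71 in Capan1. Of its 10 genes, 7 were detected on no Panc1 array and 6 on no Capan1 array, PTPRC, CD3D and CD3E in both lines. The others, CD79A and CD79B in both lines, were detected on some arrays. So were THY1 of the fibroblast list in Panc1, and PECAM1 and VWF of the endothelial list in Capan1. Of 6 myeloid markers, LYZ, the secreted enzyme lysozyme, was detected on all 12 Capan1 arrays at 6.23 to 10.22 and on none in Panc1. CSF1R and CD163 were detected on no array. CD14 was detected on some arrays of both lines, and ITGAM and FCGR3A on some in Panc1 and none in Capan1. The list's group means ran from 4.94 to 5.63 in Capan1 and from 4.68 to 4.93 in Panc1. The part of LYZ in the results was not tested. Levels are log2 values after background correction and quantile normalization. An array detected 10015 to 12090 genes (detection p below 0.01), and detection began at a level of 4.99 to 5.45. That level is the lowest on an array among detected rows of a single probe. Over all genes, paired arrays differed by an SD of 0.162 (Capan1 DMSO) to 0.365 (Capan1 shIRAK1+4). Groups with hairpins against IRAK1 or IRAK4 spread over 0.257 to 0.365 in 5 of 6 cases, and over 0.173 in Panc1 shIRAK1+4. The rows of LTB, TNFRSF10B, TRAF1 and BIRC3 combine several probes. In such rows 35.6% of deposited log2 signals over 8, before normalization, carry a detection p that misses the limit. A missed detection therefore says less for them, and the level where detection began need not hold for them.

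The targeted kinases were read next. IRAK1 lay at 11.30 and 11.53 in Panc1 scramble cells and at 8.34 and 9.58 with shIRAK1, a difference of -2.46 ± 0.29 (adjusted p = 7.14e-05), and it fell by 2.89 with shIRAK1+4. In Capan1 the difference was -1.18 (adjusted p = 0.0573) with shIRAK1 and -1.59 (adjusted p = 0.00604) with shIRAK1+4, the latter not past the threshold without Capan1 scramble replicate 1 (adjusted p = 0.0719). IRAK4 was not detected on the scramble, shIRAK4 or shIRAK1+4 arrays of either line, so these arrays do not show its knockdown. In Panc1 IRAK4 also differed between groups without a hairpin against it: it read 6.45 and 5.85 with DMSO, at least 1.67-fold above scramble (adjusted p = 0.000996), and 5.79 and 5.95 with shIRAK1, at least 1.38-fold above scramble (adjusted p = 0.0114, lost without scramble replicate 1 at 0.109, without shIRAK1 replicate 2 at 0.0708 and with a background from all rows at 0.0542). In Capan1 the IRAK1 difference with shIRAK4 was -0.84 (adjusted p = 0.0934). Every comparison with a hairpin shares its line's 2 scramble arrays, and the inhibitor and scramble groups share the DMSO arrays as their reference. Levels of different genes come from different probes and are not set against each other.

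Between 0 and 6 members passed the test in each treatment comparison. With the inhibitor 6 of 9 tested members passed the test in Capan1, 5 lower and 1 higher, where 31% of all tested genes did; in Panc1 2 of 9 tested members passed, both lower, against 4.52% of all genes. In Panc1, shIRAK1 gave 6 of 9 tested members (3 higher and 3 lower, all genes 8.84%), shIRAK4 gave 4 of 8 tested members (2 and 2, all genes 11.3%) and shIRAK1+4 gave 3 of 8 tested members (1 higher and 2 lower, all genes 12.5%). In Capan1, shIRAK4 gave 6 of 9 tested members (4 higher and 2 lower, all genes 6.99%) and shIRAK1+4 gave 1 of 10 tested members (higher, all genes 4.4%). With shIRAK1 alone in Capan1, limma called 0 of 9 tested members (all genes 1.36%), and 2 of them had an unadjusted p below 0.05. A call means a limma p-value below 0.05 after Benjamini-Hochberg adjustment over every gene that both arrays of a compared group detected.

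The members were chosen with earlier results of these data known, so their shares and medians are no independent measure against all genes. The median absolute difference of the tested members was 0.997 with the inhibitor in Capan1, where that of all tested genes was 0.348. With the inhibitor in Panc1 it was 0.62, beside 0.201 for all genes. With shIRAK1 in Panc1 it was 1.04, and with shIRAK4 in Capan1 1.18, where all genes gave 0.222 and 0.227. With shIRAK1 in Capan1 the members' value, 0.1591, lay beside 0.1604 for all genes. The counts rest on few arrays: leaving out 1 array at a time gave 0 or 1 called members with the inhibitor in Panc1, 2 to 4 with shIRAK4 in Capan1 (3 without scramble replicate 1 and 2 without scramble replicate 2) and 3 to 6 with shIRAK1 in Panc1, whereas 6 were called each time with the inhibitor in Capan1.

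**Figure D1:**
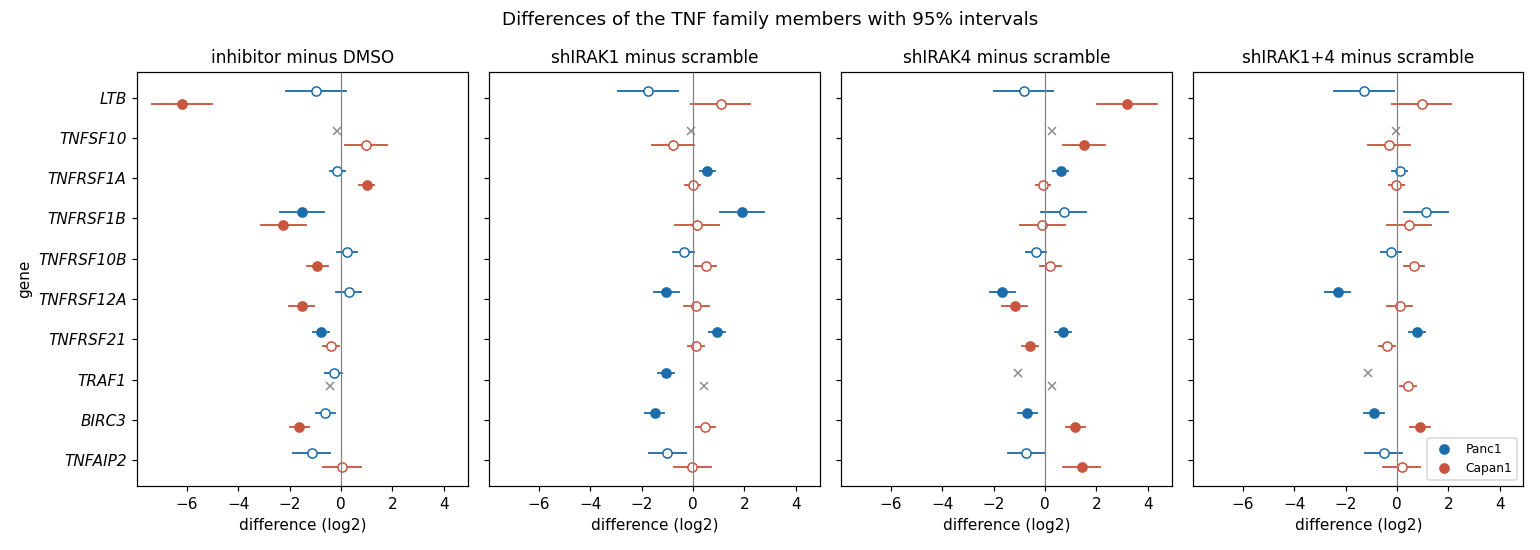
Difference of each member from its control on the log2 scale (x axis), one panel per treatment, with blue for Panc1 and red for Capan1; lines are 95% intervals from limma, filled points passed the test, open points did not, and grey crosses were not tested. LTB in Capan1 lies at -6.18 with the inhibitor and at 3.17 with shIRAK4. BIRC3, measured from scramble, lies on opposite sides of 0 in the 2 lines with each hairpin group.

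The ligands differed most between Capan1 groups. LTB encodes lymphotoxin beta, the membrane anchor that holds lymphotoxin alpha at the cell surface as a ligand of LTBR. Its gene lies at chr6:31580558-31582425 (GRCh38.p14, RefSeq). The 250 bases before its start are shown because a kappaB consensus, the motif bound by NF-kappaB, falls in them. RefSeq gives 2 windows for LTB that differ by 1 base, and the first, chr6:31582426-31582675 on the minus strand, reads 5′ to 3′ with the match in capitals:
LTB: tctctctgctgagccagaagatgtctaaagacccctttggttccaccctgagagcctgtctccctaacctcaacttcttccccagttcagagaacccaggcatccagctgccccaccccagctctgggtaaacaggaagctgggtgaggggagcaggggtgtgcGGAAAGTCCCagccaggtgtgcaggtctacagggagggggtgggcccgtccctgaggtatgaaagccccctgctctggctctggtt
The match reads GGGACTTTCC on the opposite strand and spans bases -86 to -77 from the start. The kappaB consensus was searched on both strands of 250 bases before and 50 after each start, and 5.91% of 35116 such RefSeq windows hold it.

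LTB stood at 10.76 and 10.88 on the 2 Capan1 DMSO arrays and at 4.73 and 4.56 with the inhibitor, where neither array detected it. The fitted difference was -6.18 ± 0.55 (adjusted p = 5.24e-07), and against the level where detection began in 1-probe rows the fall was 46.9-fold. The LTB row combines several probes and went undetected at 5.60 on a Panc1 inhibitor array, where that level was 5.25. The fold is thus no strict lower bound. The size of the fall depends on the background correction. An alternative took the background from all rows, those of several probes included, with detection p as stored rather than rounded. Its estimated SD is 209 to 383 signal units in place of 6.68 to 10.55, and the difference was -3.25, or 9.36-fold against the detection level. With an offset of 50 that fold was 25.4. The array reads a whole culture, so fewer expressing cells and less RNA per cell cannot be told apart, here or below. Scramble cells of the same line read 6.39 and 6.76, also far under DMSO (-4.24 ± 0.55 (adjusted p = 5.89e-05)). From that low reference, shIRAK4 arrays read 10.67 and 8.84, a rise of 3.17 ± 0.55 (adjusted p = 0.00188) with 1.83 between its 2 arrays. These differences were -3.13 and 1.80 with that wider background, both still called. Both shIRAK4 arrays lay above all other hairpin arrays of Capan1. The shIRAK1 arrays read 7.75 and 7.55 and the shIRAK1+4 arrays 7.17 and 7.90. These lay above both scramble arrays without passing the test, at 1.07 (adjusted p = 0.492) and 0.96 (adjusted p = 0.35).

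In Panc1 LTB was lower at baseline than in Capan1, at 6.41 and 6.43 with DMSO, a line difference of -4.40 ± 0.55 (adjusted p = 3.15e-06) (-3.15 with a background from all rows). The inhibitor arrays read 5.28 and 5.60 and did not detect it, and the difference of -0.98 (adjusted p = 0.355) did not pass. That call depends on the spread that is used: the adjusted p was 0.00287 in a fit of the DMSO and inhibitor arrays alone and 0.0345 with array weights. Scramble arrays read 7.43 and 7.52, shIRAK1 arrays 6.11 and 5.35 and shIRAK1+4 arrays 6.21 and 6.17. Each hairpin pair lay below both scramble arrays, and the differences of -1.74 (adjusted p = 0.0574) and -1.28 (adjusted p = 0.136) did not pass; with array weights the adjusted p were 0.0105 and 0.00776. The shIRAK4 arrays disagreed, at 7.76 and 5.52, the second not detected. Over both arrays the difference from scramble was -0.84 (adjusted p = 0.351), and without replicate 1 it was -1.96 (adjusted p = 0.0213). Ordered by mean, LTB ran from Capan1 DMSO and Capan1 shIRAK4 down to Panc1 inhibitor and Capan1 inhibitor, and the arrays of 6 of the 11 neighbouring pairs of groups overlapped.

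TNFSF10, known as TRAIL, is the ligand of the death receptors TNFRSF10A and TNFRSF10B. None of the 12 Panc1 arrays detected it, with levels of 4.26 to 4.86, so it was not tested between Panc1 groups. Capan1 DMSO arrays read 5.52 and 6.04, at least 1.44-fold above Panc1 DMSO (-1.23 (adjusted p = 0.0121); 0.111 without Capan1 DMSO replicate 2 and 0.0615 without Panc1 DMSO replicate 1). That difference, taken with a background from all rows, was -0.06 (adjusted p = 0.231) and its bound 1.02-fold. The inhibitor arrays of Capan1 read 6.67 and 6.82, above both DMSO arrays, with a difference of 0.96 (adjusted p = 0.068) that 3 alternatives called (0.0018 in a fit of the drug arm alone, 0.00405 with array weights and 0.0498 with an offset of 50). The highest readings of the series were the Capan1 shIRAK4 arrays, 8.19 and 7.82, against 6.40 and 6.56 in scramble cells, a rise of 1.52 ± 0.39 (adjusted p = 0.0246). This call was lost without either scramble array (adjusted p = 0.146 without replicate 1 and 0.102 without replicate 2), without shIRAK4 replicate 1 (0.111), with no detection filter (0.074) and in a fit of Capan1 alone (0.128) or of the hairpin arm alone (0.0874), and with a background from all rows the rise was 0.29. The shIRAK1 arrays read 4.93 and 6.46, the first not detected, and the shIRAK1+4 arrays 5.52 and 6.82. Both pairs spread over more than 1 log2 unit and overlapped the scramble arrays. Without shIRAK1 replicate 2 the shIRAK1 difference was -1.55 (adjusted p = 0.0418).

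**Figure D2:**
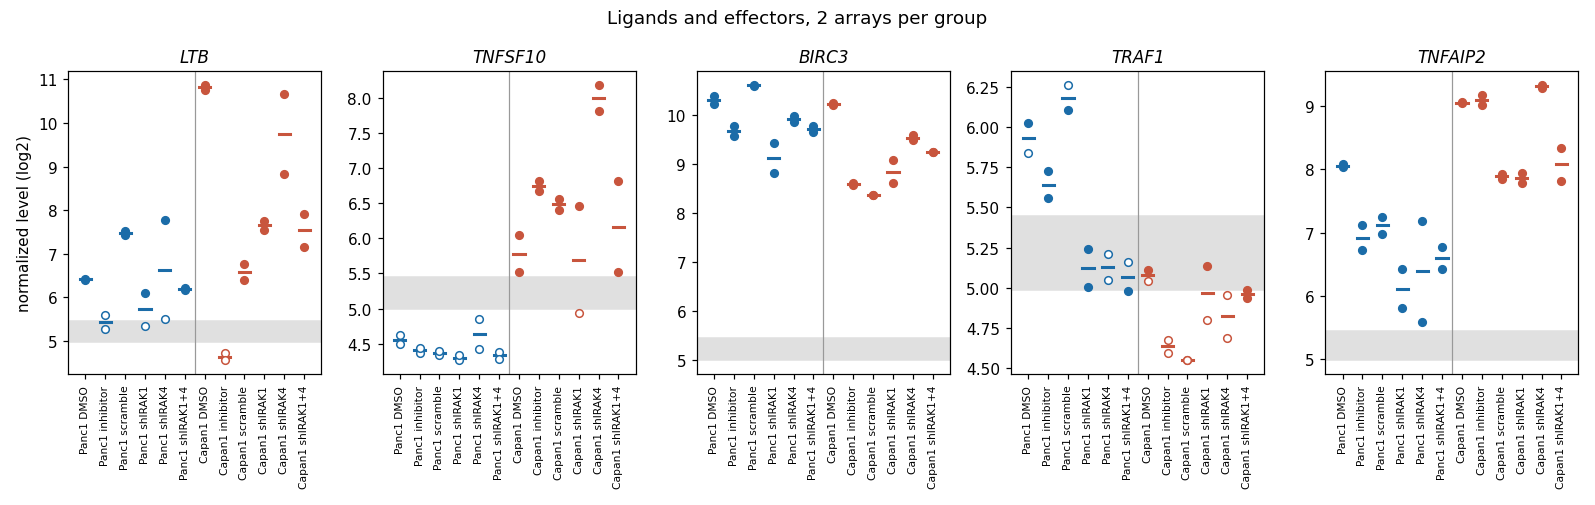
Normalized level (log2, y axis) of the ligands and effectors on each of the 24 arrays, by group (x axis), blue for Panc1 and red for Capan1; a point is 1 array, a bar the mean of 2, an open point an array that did not detect the gene, and the grey band the levels at which detection began. Each panel has its own axis. LTB spans 4.56 to 10.88 within Capan1, and the 2 Panc1 shIRAK4 arrays stand 2.25 apart.

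Among the receptors, TNFRSF1B and TNFRSF12A showed the widest ranges of group means. TNFRSF1A, the main death domain receptor of TNF, read 8.31 and 8.23 in Capan1 DMSO cells and 9.30 and 9.23 with the inhibitor. It rose by 0.997 ± 0.14 (adjusted p = 5.32e-05), the one member called higher with the inhibitor in Capan1; TNFSF10 read higher by a similar amount without a call. In Panc1 the DMSO arrays read 9.19 and 9.17 and the inhibitor arrays 8.97 and 9.10, a difference of -0.14 (adjusted p = 0.631). Panc1 scramble arrays read 8.77 and 8.80, shIRAK1 arrays 9.39 and 9.30 and shIRAK4 arrays 9.58 and 9.21. It rose with shIRAK1 (0.56 ± 0.14 (adjusted p = 0.0175)) and with shIRAK4 (0.61 ± 0.14 (adjusted p = 0.00909)). The shIRAK1 call was lost without either scramble array (0.0984 without replicate 1, 0.0855 without replicate 2), without shIRAK1 replicate 1 (0.0942) and in a fit of the hairpin arm alone (0.0761). The shIRAK4 call was lost without scramble replicate 1 (0.0674), scramble replicate 2 (0.0538) or shIRAK4 replicate 1 (0.0901). Panc1 shIRAK1+4 arrays read 8.86 and 8.91, 0.10 (adjusted p = 0.682) from scramble. The 8 Capan1 scramble and hairpin arrays all lay between 8.41 and 8.71, and none of their 3 hairpin differences passed.

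TNFRSF1B, the TNF receptor without a death domain, was lower with the inhibitor in both lines. It fell in Capan1 from 8.10 and 8.01 to 5.85 and 5.77, a difference of -2.24 ± 0.41 (adjusted p = 0.00061), or 4.72-fold. In Panc1 it fell from 8.65 and 8.68 to 7.29 and 7.03, a difference of -1.50 ± 0.41 (adjusted p = 0.0442). The groups did not overlap in either line, yet the Panc1 call did not survive the removal of any 1 of its 4 arrays (adjusted p = 0.139 without inhibitor replicate 1, 0.23 without inhibitor replicate 2, 0.171 without DMSO replicate 1 and 0.218 without DMSO replicate 2), nor was it made with no detection filter (0.118). With a background from all rows both differences were called but smaller, at -0.36 in Capan1 and -0.49 in Panc1. Panc1 scramble arrays read 6.57 and 6.69 and shIRAK1 arrays 8.90 and 8.16, a rise of 1.90 ± 0.41 (adjusted p = 0.00737) that was not past the threshold without scramble replicate 1 (0.0564) or shIRAK1 replicate 1 (0.0817) and was 0.53 with a background from all rows. The shIRAK1+4 arrays, 7.83 and 7.68, also lay above both scramble arrays (1.12 (adjusted p = 0.0795); 0.00443 with array weights, 0.025 with the replicate number as a block, 0.0206 under median scaling). Panc1 shIRAK4 arrays stood apart at 8.05 and 6.64. Their difference was 0.72 (adjusted p = 0.277), and 1.42 without replicate 2 (adjusted p = 0.0415). In Capan1, scramble arrays read 7.53 and 7.19, shIRAK1 arrays 8.14 and 6.90, shIRAK4 arrays 7.68 and 6.84 and shIRAK1+4 arrays 8.05 and 7.59. None of these hairpin differences passed, the largest being 0.46 (adjusted p = 0.577).

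TNFRSF10B is a death receptor of TRAIL. In Capan1 it fell with the inhibitor from 8.54 and 8.55 to 7.54 and 7.69, a difference of -0.93 ± 0.19 (adjusted p = 0.00158) (-0.34 with a background from all rows). Scramble arrays of that line read 7.41 and 7.86, shIRAK1 arrays 8.25 and 8.004, shIRAK4 arrays 8.06 and 7.63 and shIRAK1+4 arrays 8.30 and 8.29. The shIRAK1 and shIRAK1+4 arrays lay above both scramble arrays, at 0.49 (adjusted p = 0.287) and 0.66 (adjusted p = 0.0582), and the latter passed with a background taken from all rows (0.0187) and with an offset of 50 (0.0372). In Panc1 all 12 arrays lay between 7.05 and 7.74 and no treatment difference passed. The largest of these was -0.36 (adjusted p = 0.266) with shIRAK1.

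TNFRSF12A, also called Fn14, is the receptor of the ligand TWEAK. It fell with shIRAK4 in both lines. In Panc1 the scramble arrays read 10.97 and 11.02, the shIRAK1 arrays 9.71 and 10.21, the shIRAK4 arrays 9.27 and 9.39 and the shIRAK1+4 arrays 8.69 and 8.71. No array of a hairpin group reached the scramble arrays, and none of the 4 groups overlapped another. The differences were -1.04 ± 0.23 (adjusted p = 0.00946) with shIRAK1, -1.66 ± 0.23 (adjusted p = 0.000212) with shIRAK4 and -2.30 ± 0.23 (adjusted p = 8.75e-06) with shIRAK1+4, the last a 4.92-fold fall. The differences between the hairpin groups themselves were not tested. The shIRAK1 call was lost without scramble replicate 1 (0.054), scramble replicate 2 (0.0719) or shIRAK1 replicate 1 (0.107), and the other 2 calls were kept under every alternative, the shIRAK4 difference being -2.26 with a background from all rows.

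In Capan1, TNFRSF12A scramble arrays read 9.96 and 10.20 and shIRAK4 arrays 8.76 and 9.05, a difference of -1.18 ± 0.23 (adjusted p = 0.0053); without scramble replicate 2 the adjusted p was 0.0693. The shIRAK1 arrays (10.50 and 9.91) and shIRAK1+4 arrays (10.54 and 9.83) overlapped the scramble arrays. The inhibitor lowered it in Capan1 from 10.49 and 10.73 to 9.23 and 8.95, a difference of -1.52 ± 0.23 (adjusted p = 0.00013). In Panc1 the inhibitor arrays, 11.11 and 11.20, lay above the DMSO arrays, 10.73 and 10.97, with a difference of 0.30 (adjusted p = 0.534).

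TNFRSF21, or death receptor 6, was higher with each hairpin group in Panc1 and lower with shIRAK4 in Capan1. Panc1 scramble arrays read 9.90 and 9.96, the lowest of the series, and shIRAK1 arrays read 10.99 and 10.69, shIRAK4 arrays 10.58 and 10.67 and shIRAK1+4 arrays 10.65 and 10.76. The rises were 0.91 ± 0.15 (adjusted p = 0.000813), 0.70 ± 0.15 (adjusted p = 0.00611) and 0.78 ± 0.15 (adjusted p = 0.00236), and the second was not past the threshold without scramble replicate 1 (0.0523). All hairpin arrays nevertheless lay below both Panc1 DMSO arrays (11.62 and 11.46), with scramble itself at -1.61 from DMSO. The Panc1 inhibitor arrays read 10.71 and 10.83, a difference of -0.77 ± 0.15 (adjusted p = 0.007). That call was lost without DMSO replicate 1 (0.0793) or inhibitor replicate 1 (0.0733) and under median scaling (0.0614).

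In Capan1, TNFRSF21 went from 11.49 and 11.39 with DMSO to 11.07 and 11.05 with the inhibitor. The difference of -0.38 (adjusted p = 0.0595) did not pass, although the arrays did not overlap and 4 alternatives called it, the lowest adjusted p being 0.00757 with array weights. Scramble arrays read 12.05 and 11.90, shIRAK1 arrays 12.08 and 12.05, shIRAK4 arrays 11.59 and 11.19 and shIRAK1+4 arrays 11.68 and 11.48. With shIRAK4 it fell by 0.58 ± 0.15 (adjusted p = 0.0235). The call was lost without scramble replicate 1 (0.176), scramble replicate 2 (0.0737) or shIRAK4 replicate 2 (0.17), under median scaling (0.165) and in fits of Capan1 alone (0.0993) or of the hairpin arm alone (0.0933).

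**Figure D3:**
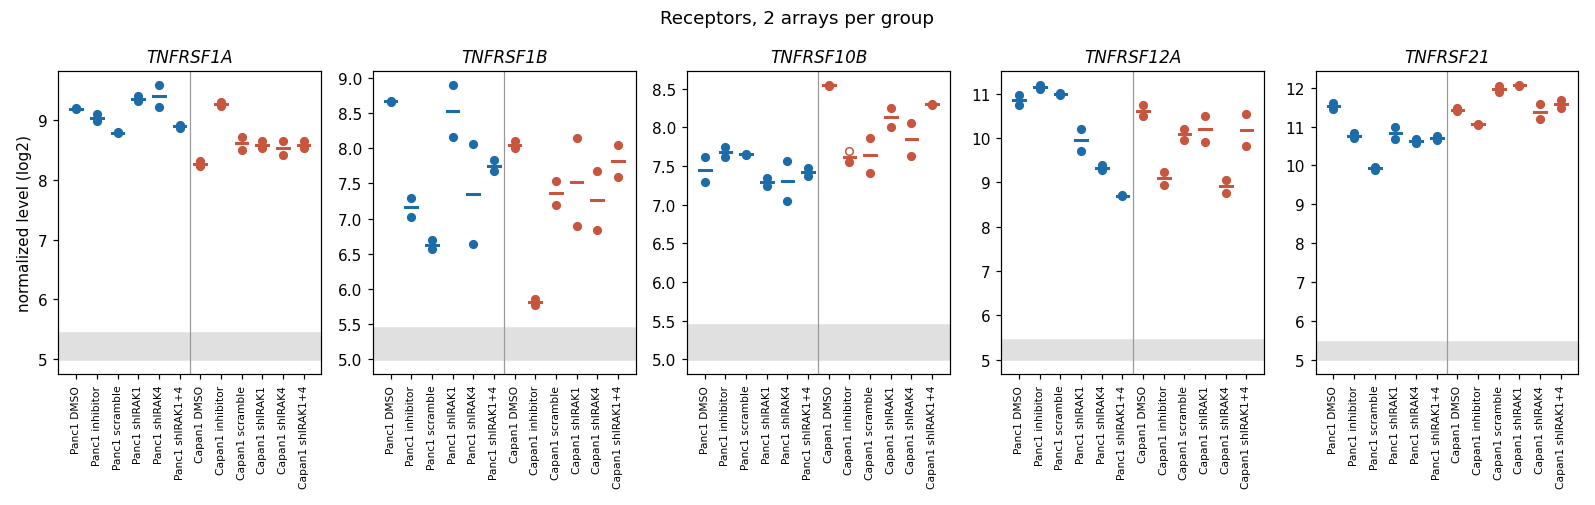
Normalized level (log2, y axis) of the 5 receptors on each of the 24 arrays, by group (x axis), blue for Panc1 and red for Capan1; a point is 1 array, a bar the mean of 2, an open point an array that did not detect the gene, and the grey band the levels at which detection began. Each panel has its own axis. TNFRSF12A steps down over the Panc1 scramble, shIRAK1, shIRAK4 and shIRAK1+4 groups, which do not overlap.

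The effectors came last. TRAF1 is an adaptor that joins TRAF2 and the ubiquitin ligases BIRC2 and BIRC3 at TNFRSF1B. Its row combines several probes, for which the deposited detection p is less dependable, and 11 of 24 arrays detected it at levels of 4.55 to 6.26. Panc1 scramble arrays read 6.26 and 6.10 and shIRAK1 arrays 5.24 and 5.005, a difference of -1.06 ± 0.15 (adjusted p = 0.000293), and -0.06 with a background from all rows. The shIRAK4 arrays (5.05 and 5.21) and shIRAK1+4 arrays (4.98 and 5.16) also lay below both scramble arrays but left TRAF1 outside the test, because fewer than 2 arrays of each compared group detected it. With no detection filter the differences were -1.05 (adjusted p = 0.000351) and -1.11 (adjusted p = 0.000197). Panc1 DMSO arrays read 5.84 and 6.03 and inhibitor arrays 5.56 and 5.73, -0.29 (adjusted p = 0.305). In Capan1 all 12 arrays lay between 4.55 and 5.14, within or under the levels where detection began, and its tested difference with shIRAK1+4 was 0.41 (adjusted p = 0.128). With no detection filter, TRAF1 in Capan1 was lower than DMSO by 0.44 with the inhibitor (adjusted p = 0.0474) and by 0.53 with scramble (adjusted p = 0.0337).

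BIRC3, also called cIAP2, is a ubiquitin ligase that keeps caspase-8 in check at TNF receptors and restrains the non-canonical NF-kappaB pathway. Its gene lies at chr11:102317484-102339403 (GRCh38.p14). The 250 bases before its start are shown because they hold 2 matches to the kappaB consensus. They are chr11:102317234-102317483 on the plus strand, 5′ to 3′, with the matches in capitals:
BIRC3: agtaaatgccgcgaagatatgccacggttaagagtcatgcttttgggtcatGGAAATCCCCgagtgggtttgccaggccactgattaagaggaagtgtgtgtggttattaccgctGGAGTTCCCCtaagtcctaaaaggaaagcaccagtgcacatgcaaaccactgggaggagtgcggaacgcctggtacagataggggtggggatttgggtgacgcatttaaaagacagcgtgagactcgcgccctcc
On the opposite strand they read GGGGATTTCC (bases -199 to -190) and GGGGAACTCC (bases -135 to -126). LTB and BIRC3 were the 2 of 8 members with a RefSeq window that hold the consensus, and TNFRSF10B and TNFRSF12A have no window in the table.

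BIRC3 fell with every hairpin group in Panc1 and rose with shIRAK4 and shIRAK1+4 in Capan1. In Panc1, scramble arrays read 10.62 and 10.59, shIRAK1 arrays 9.42 and 8.82, shIRAK4 arrays 9.98 and 9.85 and shIRAK1+4 arrays 9.78 and 9.64. All 6 hairpin arrays lay below both scramble arrays. The differences were -1.48 ± 0.18 (adjusted p = 7.13e-05) with shIRAK1, -0.69 ± 0.18 (adjusted p = 0.0185) with shIRAK4 and -0.89 ± 0.18 (adjusted p = 0.00333) with shIRAK1+4. The shIRAK4 call was lost without scramble replicate 1 (0.1), scramble replicate 2 (0.0838) or shIRAK4 replicate 2 (0.0836), under median scaling (0.116) and in a fit of the hairpin arm alone (0.0664).

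In Capan1, BIRC3 scramble arrays read 8.36 and 8.36, shIRAK1 arrays 9.08 and 8.60, shIRAK4 arrays 9.59 and 9.49 and shIRAK1+4 arrays 9.24 and 9.25. All 6 hairpin arrays lay above both scramble arrays. BIRC3 rose by 1.18 ± 0.18 (adjusted p = 0.000589) with shIRAK4 and by 0.89 ± 0.18 (adjusted p = 0.00876) with shIRAK1+4, and the difference with shIRAK1 was 0.48 (adjusted p = 0.253). The shIRAK1+4 call was lost without scramble replicate 1 (0.084) or replicate 2 (0.0667), under median scaling (0.0855), with array weights (0.0572) and in a fit of the hairpin arm alone (0.0587).

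The inhibitor lowered BIRC3 in Capan1 from 10.25 and 10.20 to 8.61 and 8.58, a difference of -1.63 ± 0.18 (adjusted p = 4.42e-06), or 3.1-fold, a call kept under every alternative. In Panc1 it read 10.38 and 10.22 with DMSO and 9.58 and 9.78 with the inhibitor, without overlap. The difference of -0.62 (adjusted p = 0.0543) lay just outside the threshold, and 5 alternatives called it, among them the replicate block (0.0371) and array weights (0.00245). Capan1 scramble cells differed from Capan1 DMSO by -1.87, and all Capan1 hairpin arrays lay below both DMSO arrays, including those that rose from scramble. The arrays of 6 of 11 neighbouring pairs of groups overlapped in the order of BIRC3 means.

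TNFAIP2 was first found as a gene induced by TNF in endothelial cells. In Capan1 it read 9.06 and 9.04 with DMSO and 9.16 and 9.01 with the inhibitor, overlapping (0.04 (adjusted p = 0.946)). Capan1 scramble arrays read 7.85 and 7.93 and shIRAK4 arrays 9.29 and 9.33, a rise of 1.42 ± 0.34 (adjusted p = 0.0179). Removing any 1 of the 4 arrays ended the call (0.11 without scramble replicate 1, 0.0924 without scramble replicate 2, 0.0561 without shIRAK4 replicate 1 and 0.0637 without shIRAK4 replicate 2), and it was also lost with no detection filter (0.0543) and in a fit of the hairpin arm alone (0.0731). The shIRAK1 arrays (7.79 and 7.93) and shIRAK1+4 arrays (8.33 and 7.81) overlapped scramble.

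In Panc1, TNFAIP2 read 8.03 and 8.08 with DMSO and 7.12 and 6.72 with the inhibitor, a difference of -1.13 (adjusted p = 0.0682) with no overlap; 4 alternatives called it, with array weights at 0.00146. Scramble arrays read 7.24 and 6.98, shIRAK1 arrays 6.42 and 5.81 and shIRAK1+4 arrays 6.43 and 6.77, all 4 hairpin arrays below scramble without a call. The shIRAK1 difference of -0.996 had an adjusted p of 0.0808 and of 0.0298 with array weights. The shIRAK4 arrays read 7.19 and 5.59, and without replicate 1 the difference was -1.52 (adjusted p = 0.00186), against -0.72 (adjusted p = 0.188) with both.

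The control groups differed among themselves in many members. Between the DMSO groups, 5 of 9 tested members passed, where 57% of all tested genes did: TNFRSF1A was higher in Panc1 (0.91 ± 0.14), and LTB, TNFSF10, TNFRSF10B (-1.10 ± 0.19) and TNFAIP2 (-0.996 ± 0.34) were lower. Removing any 1 of its 4 arrays ended the TNFAIP2 call (adjusted p from 0.0657 without Panc1 DMSO replicate 2 to 0.0753 without Panc1 DMSO replicate 1), as did testing with no detection filter (0.0563). Scramble cells differ from DMSO cells by 2 vectors and 2 selections as well as by the solvent. In Panc1, 3 of 8 tested members passed between them (all genes 23.7%), all lower with scramble: TNFRSF1A (-0.39 (adjusted p = 0.0473)), TNFRSF1B (-2.03 ± 0.41) and TNFRSF21 (-1.61 ± 0.15). Removing any 1 of its 4 arrays ended the TNFRSF1A call, with an adjusted p from 0.131 (without scramble replicate 2) to 0.168 (without scramble replicate 1). In Capan1, 5 of 9 tested members passed (all genes 14.2%): TNFRSF21 was higher with scramble (0.53 (adjusted p = 0.0229)), and LTB, TNFRSF10B (-0.91 ± 0.19), BIRC3 (-1.87 ± 0.18) and TNFAIP2 (-1.16 (adjusted p = 0.0305)) were lower. Leaving out any 1 of the 4 arrays ended the TNFRSF21 and TNFAIP2 calls (adjusted p from 0.0604 to 0.158 and from 0.113 to 0.14), and leaving out scramble replicate 1 ended the TNFRSF10B call (0.0758). Median scaling ended all 3 of these calls (0.055, 0.0656 and 0.0918) and the TNFRSF1A call in Panc1 (0.0543). The background from all rows gave a TNFRSF10B difference of -0.37 between the DMSO groups and a TNFRSF1B difference of -0.57 between scramble and DMSO in Panc1.

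Whether the lines differed in their response was tested directly, as the difference in Panc1 minus that in Capan1. BIRC3 had a called term with the inhibitor and with each of the 3 hairpin groups: 1.01 (adjusted p = 0.0131) with the inhibitor, -1.97 (adjusted p = 0.000275) with shIRAK1, -1.87 (adjusted p = 0.000276) with shIRAK4 and -1.78 (adjusted p = 0.000384) with shIRAK1+4. The 3 hairpin terms were kept under every alternative, and the inhibitor term was lost without Panc1 DMSO replicate 2 (0.0621) or Panc1 inhibitor replicate 2 (0.0625) and under median scaling (0.079). Those hairpin terms are measured from scramble, where the BIRC3 mean was highest of all 12 groups in Panc1 (10.61) and lowest in Capan1 (8.36). DMSO means were 10.30 in Panc1 and 10.22 in Capan1, and every hairpin mean lay below DMSO in both lines. With shIRAK1, shIRAK4 and shIRAK1+4 they were 9.12, 9.91 and 9.71 in Panc1 and 8.84, 9.54 and 9.25 in Capan1. Hairpin terms measured from DMSO were not tested. For the inhibitor, 5 of 10 tested members had a called term (all genes 13.6%), and for shIRAK1 3 of 10 tested members (all genes 3.99%). For shIRAK4 it was 5 of 9 tested members (all genes 7.44%), and for shIRAK1+4 5 of 10 tested members (all genes 8.76%). LTB differed between the lines with the inhibitor (5.19 (adjusted p = 0.000387)) and with shIRAK4 (-4.01 (adjusted p = 0.00521)). The first of these sizes rests in part on the Capan1 inhibitor arrays, which lay under the level where detection began, and was 3.19 with a background from all rows. The second lost its call with that background (-1.88, adjusted p = 0.0852), and the paired shIRAK4 arrays differed by 1.83 in Capan1 and 2.25 in Panc1. For TNFRSF12A the term was 1.83 (adjusted p = 0.00171) with the inhibitor, where it fell in Capan1 and the Panc1 difference did not pass, and -2.40 (adjusted p = 0.000348) with shIRAK1+4, where it fell in Panc1 and the Capan1 difference did not pass. With shIRAK4, where it fell in both lines, the term was -0.49 (adjusted p = 0.401). TNFRSF1B fell with the inhibitor in both lines, and its term was 0.73 (adjusted p = 0.43) with a 95% interval from -0.48 to 1.95.

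**Figure D4:**
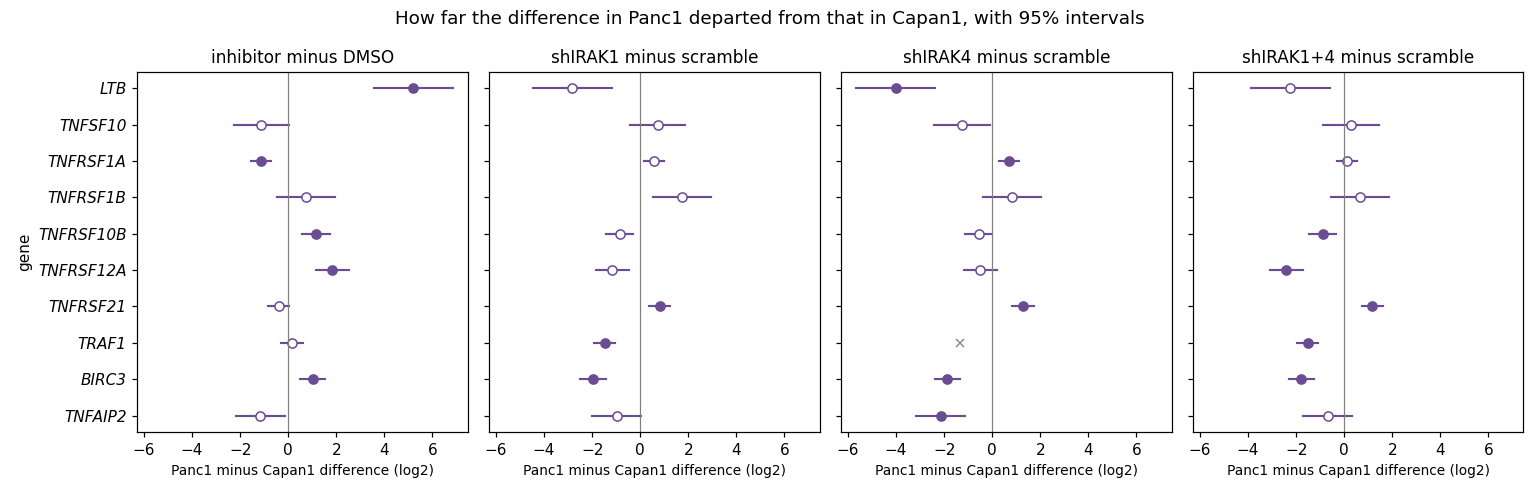
Panc1 difference minus Capan1 difference of each member on the log2 scale (x axis), one panel per treatment; lines are 95% intervals from limma, filled points passed the test, open points did not, and grey crosses were not tested. BIRC3 lies below 0 with each hairpin group, from -1.97 to -1.78, and above 0 with the inhibitor, at 1.01. The hairpin terms are measured from scramble, where the BIRC3 mean was highest of all groups in Panc1 and lowest in Capan1.

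Over all 15 comparisons, 136 member differences were tested and 59 passed, where the share of all genes called ran from 1.36% to 57% by comparison. Of these, 33 passed under every alternative other than a test against a fold of 1.5, 21 passed that test, and 20 passed under all alternatives. The 20 comprised LTB, TNFRSF1B, TNFRSF12A and BIRC3 with the inhibitor in Capan1, TNFRSF12A with shIRAK4 and shIRAK1+4 in Panc1, BIRC3 with shIRAK1 in Panc1 and LTB with shIRAK4 in Capan1 among the treatment differences. No called difference changed sign. Taking the background from all rows moved the fold of 21 of the 59 by over 1.5 times, 20 of them to smaller and 1 to larger, and an offset of 50 made 6 smaller; the other 4 changes of scaling or background moved none so far.

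Another 91 genes of the pathway, in 5 lists of ligands, receptors, adaptors, apoptosis regulators and TNFAIP or TNIP genes, were counted in the same fits. The lists were likewise chosen with earlier results of these data known. With the inhibitor in Capan1, 47 were tested, of which 5 rose and 14 fell, a share of 40.4% beside the 31% of all genes. With the inhibitor in Panc1 limma called 0 of 39, of which 8 had an unadjusted p below 0.05, where 4.52% of all genes were called. In Panc1, 3 rose and 3 fell of 40 with shIRAK1, a share of 15% beside 8.84% of all genes. With shIRAK4 there 1 rose and 1 fell of 38 (5.26% beside 11.3%), and with shIRAK1+4 1 rose and 2 fell of 38 (7.89% beside 12.5%), both shares below that of all genes. In Capan1, 1 fell of 45 with shIRAK1 (2.22% beside 1.36%), 7 rose of 50 with shIRAK4 (14% beside 6.99%), and 2 rose and 1 fell of 46 with shIRAK1+4 (6.52% beside 4.4%).

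The largest pathway changes with the inhibitor in Capan1 were in TNF itself, which read 7.72 and 7.81 with DMSO and 4.29 and 4.48 with the inhibitor, not detected, a fall of at least 5.64-fold, and of at least 1.23-fold with a background from all rows. TNFAIP3, which encodes A20, an inhibitor of NF-kappaB signalling, fell by 2.13 ± 0.39 (adjusted p = 0.000696), and the TRAIL receptor TNFRSF10A fell by 1.47 ± 0.25 (adjusted p = 0.000328). The ligand CD70 rose by 1.68 ± 0.17 (adjusted p = 1.73e-06), the ligand TNFSF9 by 1.03 ± 0.30 (adjusted p = 0.0165) and BIRC5, survivin, by 0.93 ± 0.16 (adjusted p = 0.000304). The TNFSF9 call was lost without DMSO replicate 2 (0.107) or inhibitor replicate 2 (0.11), and with a background from all rows it was lost for TNFSF9 (0.11) and CD70 (0.343). That background also gave -0.48 for TNFAIP3 and -0.38 for TNFRSF10A, both called. Capan1 scramble arrays read TNF at 4.36 and 4.51, also not detected, a difference from DMSO of -3.33 (adjusted p = 2.47e-06). Between scramble and DMSO, TNFAIP3 also fell (-1.85, adjusted p = 0.00445) and TNFSF9 rose (1.26, adjusted p = 0.0098). CD70, TNFRSF10A and BIRC5 had no call between those groups. With shIRAK4, TNF rose by 2.09 (adjusted p = 0.000772) from those undetected scramble levels, and TNFAIP3 rose from scramble by 1.43 (adjusted p = 0.0362).

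With shIRAK1+4 in Panc1, TNF passed detection in the scramble group (5.88 and 5.91) but not with the hairpins (4.36 and 4.53), a fall of at least 1.65-fold, with an adjusted p of 0.00732 and of 0.0614 without shIRAK1+4 replicate 1; with a background from all rows the bound was 1.03-fold. RIPK2, a kinase below NOD receptors, fell by 0.49 ± 0.15 (adjusted p = 0.0424). BIRC7, an inhibitor of apoptosis, was below detection in scramble cells and rose from there (adjusted p = 0.0261). Against the level where detection began in 1-probe rows its rise was 1.04-fold, no strict bound because the BIRC7 row combines several probes. Leaving out any 1 of the 4 arrays ended both calls (lowest adjusted p 0.102 for RIPK2, without scramble replicate 2, and 0.0964 for BIRC7, without shIRAK1+4 replicate 1). With shIRAK1+4 in Capan1, the ligand TNFSF15 rose by 0.87 ± 0.22 (adjusted p = 0.0358) and RNF31, the catalytic subunit of the linear ubiquitin ligase, by 0.68 ± 0.17 (adjusted p = 0.0332), and BIRC5 fell by 0.79 ± 0.16 (adjusted p = 0.00876). Each was lost without 3 of the 4 arrays: TNFSF15 without scramble replicate 1 (0.166), scramble replicate 2 (0.171) or shIRAK1+4 replicate 2 (0.203), RNF31 without scramble replicate 1 (0.0767), scramble replicate 2 (0.26) or shIRAK1+4 replicate 1 (0.121), and BIRC5 without scramble replicate 1 (0.0896), scramble replicate 2 (0.0624) or shIRAK1+4 replicate 2 (0.0574). With a background from all rows the calls of BIRC7 (0.467), TNFSF15 (0.1) and BIRC5 (0.215) were lost, and with median scaling those of RIPK2 (0.421), TNFSF15 (0.0906) and RNF31 (0.148). Capan1 scramble itself lay below DMSO for TNFSF15 (-1.52, adjusted p = 0.000214) and RNF31 (-0.83, adjusted p = 0.00396), with no call for BIRC5. The shIRAK1+4 arrays of TNFSF15 (5.76 and 6.28) lay below both DMSO arrays (6.56 and 6.78). Those of RNF31 (7.87 and 7.50) overlapped its DMSO arrays (7.93 and 7.73). Panc1 scramble likewise lay below DMSO for BIRC7 (-1.27, adjusted p = 0.00206), which the Panc1 DMSO arrays detected at 5.78 and 5.88. Both Panc1 shIRAK1+4 arrays of BIRC7 lay below these DMSO arrays. The Panc1 shIRAK1 arrays read BIRC7 at 7.58 and 6.71, above both DMSO arrays. That rise was 2.59 (adjusted p = 8.91e-06) from scramble arrays that did not detect BIRC7, so its size is uncertain.

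The 2 genes whose 12 group means most resembled each member's were found among 9075 candidates, as a description only, since the points share arrays and fall into 2 lines. For BIRC3 they were TRAF6 (Pearson r = 0.93, 0.91 over the 6 Panc1 groups and 0.94 over the 6 Capan1 groups) and EHD1 (0.92). For TNFAIP2 they were ZC3H12A (0.96, 0.86 in Panc1 and 0.93 in Capan1) and ZNF91 (0.94), and for LTB SERPINB7 (0.92, 0.70 and 0.95) and C2CD4A (0.91, with 0.06 in Panc1). The receptors gave IMP4 (0.96) and YES1 (0.93) for TNFRSF12A, ABCD3 (0.97) and TTC7A (0.94) for TNFRSF21, FAM91A1 (0.95) and STAMBPL1 (0.94) for TNFRSF10B, SNAP47 (0.91) and CHMP5 (0.91) for TNFRSF1A, and GOLIM4 (0.84) and PROCR (0.83) for TNFRSF1B. TRAF1 gave STOX1 (0.95) and METTL1 (0.94). TNFSF10 gave GGT6 (0.99) and HLA-DMA (0.98), with -0.09 and 0.19 over the Panc1 groups, where TNFSF10 was not detected. TRAF6, named for BIRC3, was detected on only 3 Panc1 and 4 Capan1 arrays. Its Capan1 means of 5.48 with DMSO and 5.09 with the inhibitor lay near the level where detection began.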

How the data were processed

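RNA was hybridised to Illumina bead arrays. The authors deposited gene-level log2 signals with a detection p-value beside each, made with GenomeStudio 2011 per the submitters' processing notes and called non-normalized per the file headers; how probes were combined per gene is not given in the sources used here. The deposited series matrix values, also log2, served as an alternative. In R 4.3.3 the signals were made linear and corrected by normexp, whose background was estimated through detection p-values, using 26904 rows with the step pattern of a single probe. These p-values move in steps of 1 over 770 negative controls and were rounded to whole steps, since the stored digits otherwise widen the inferred background. The alternative background from all rows kept the stored digits, so it differs from the main setting in rounding as well as in rows. An offset of 16, quantile normalization and log2 followed. limma 3.58.1 fitted 12 group means to 24 arrays over 13361 genes, with 12 residual degrees of freedom and a prior of 4.87. Each comparison kept genes whose detection p was below 0.01 throughout some compared group (2 arrays) and adjusted p-values over them (Benjamini-Hochberg). Errors are limma standard errors. The code was tested on simulated data. The number of arrays limits the precision.

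Groups came from the labels. All 10 members and both targets were named, with up to 3 largest rises and 3 largest falls of the pathway lists in each line's inhibitor and shIRAK1+4 comparison, among called genes whose 4 array-to-array differences had 1 sign, and the 2 genes most like each member over 12 group means. Members, lists and the motif were chosen with earlier results of these data known. Alternatives changed the scaling, background, offset, detection filter, arrays in the fit, weights, fold threshold and replicate block. A background from robust estimates was added after seeing the data. Promoters are RefSeq's, on GRCh38.p14.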

Additional observations from a re-analysis of the deposited data

Results flagged for a closer look

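A difference in response between the lines, tested as the Panc1 difference minus the Capan1 difference, passed for 18 member and treatment pairs. It passed for 5 of 10 tested members with the inhibitor (all genes 13.6%) and 3 of 10 with shIRAK1 (all genes 3.99%). It passed for 5 of 9 with shIRAK4 (all genes 7.44%) and 5 of 10 with shIRAK1+4 (all genes 8.76%). With the inhibitor it was 5.19 (adjusted p = 0.000387) for LTB, where the differences were -0.98 in Panc1 and -6.18 in Capan1. It was -1.14 (adjusted p = 0.0012) for TNFRSF1A (-0.14 in Panc1 and 0.997 in Capan1), 1.15 (adjusted p = 0.00935) for TNFRSF10B (0.23 in Panc1 and -0.93 in Capan1), 1.83 (adjusted p = 0.00171) for TNFRSF12A (0.30 in Panc1 and -1.52 in Capan1) and 1.01 (adjusted p = 0.0131) for BIRC3 (-0.62 in Panc1 and -1.63 in Capan1). The TNFRSF10B term was lost without Panc1 DMSO replicate 2 (adjusted p = 0.0567) and under median scaling (0.111), and the BIRC3 term under median scaling (0.079) and without Panc1 DMSO replicate 2 (0.0621) or Panc1 inhibitor replicate 2 (0.0625). With a background from all rows the LTB term was 3.19 and the TNFRSF10B term 0.39.

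With shIRAK1 it was 0.818 (adjusted p = 0.0365) for TNFRSF21 (0.91 in Panc1 and 0.10 in Capan1), -1.48 (adjusted p = 0.000784) for TRAF1 (-1.06 in Panc1 and 0.42 in Capan1) and -1.97 (adjusted p = 0.000275) for BIRC3 (-1.48 in Panc1 and 0.48 in Capan1). The TNFRSF21 term was lost in 7 of the 8 fits that left out 1 array, with an adjusted p from 0.0733 without Capan1 scramble replicate 2 to 0.14 without Capan1 scramble replicate 1, under median scaling (0.0533) and in a fit of the hairpin arm alone (0.138). TRAF1 lay near the detection limit in Capan1, where its difference failed the detection filter and was not tested. Its term was -0.08 with a background from all rows.

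With shIRAK4 it was -4.01 (adjusted p = 0.00521) for LTB (-0.84 in Panc1 and 3.17 in Capan1), 0.689 (adjusted p = 0.041) for TNFRSF1A (0.61 in Panc1 and -0.08 in Capan1), 1.28 (adjusted p = 0.00145) for TNFRSF21 (0.70 in Panc1 and -0.58 in Capan1), -1.87 (adjusted p = 0.000276) for BIRC3 (-0.69 in Panc1 and 1.18 in Capan1) and -2.14 (adjusted p = 0.0136) for TNFAIP2 (-0.72 in Panc1 and 1.42 in Capan1). The LTB term was lost with a background taken from all rows (-1.88, adjusted p = 0.0852), where the TNFAIP2 term was -0.90. The TNFRSF1A term was lost in 6 of 8 fits that left out 1 array, the highest adjusted p being 0.158 without Capan1 scramble replicate 1, and also under median scaling (0.179), with series matrix values (0.0532), in a fit of the hairpin arm alone (0.134) and with array weights (0.065). The TNFAIP2 term was lost in a fit of the hairpin arm alone (0.0595) and without Capan1 scramble replicate 1 (0.0525) or Panc1 scramble replicate 1 (0.0552).

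With shIRAK1+4 it was -0.889 (adjusted p = 0.0484) for TNFRSF10B (-0.23 in Panc1 and 0.66 in Capan1), -2.40 (adjusted p = 0.000348) for TNFRSF12A (-2.30 in Panc1 and 0.10 in Capan1), 1.18 (adjusted p = 0.0026) for TNFRSF21 (0.78 in Panc1 and -0.39 in Capan1), -1.53 (adjusted p = 0.000369) for TRAF1 (-1.11 in Panc1 and 0.41 in Capan1) and -1.78 (adjusted p = 0.000384) for BIRC3 (-0.89 in Panc1 and 0.89 in Capan1). The TNFRSF10B term was lost in 7 of 8 fits that left out 1 array, the highest adjusted p being 0.205 without Capan1 scramble replicate 1, and under 6 other settings, with an adjusted p from 0.0517 with no background correction to 0.457 under median scaling. With a background from all rows it was -0.26, and the TRAF1 term -0.08. Within Panc1 the TRAF1 difference failed the detection filter and was not tested. The term was tested because both Capan1 shIRAK1+4 arrays detected TRAF1, at 4.99 and 4.94. The 4 sets of terms share each line's scramble arrays among the hairpin groups, and groups of 2 arrays are too small for a test of single outlying arrays. BIRC3 means of every hairpin group lay below DMSO in both lines, so its opposite signs hold only against scramble.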

How the results depend on the processing

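No called member difference reversed under 12 alternatives or on leaving out an array; of 2267 alternative values of members, 2047 kept their side of the threshold, 159 lost a call and 61 gained one, and 29 changed sign where neither was called. With median scaling the count of called members was 1 for the inhibitor in Panc1 (2 as reported), 0 for shIRAK1+4 in Capan1 (1 as reported), 3 for the line difference with the inhibitor (5 as reported) and 2 for scramble against DMSO in Capan1 (5 as reported). With a background from all rows the count of called members was 4 for the inhibitor in Panc1 (2 as reported) and 2 for shIRAK1+4 in Capan1 (1 as reported). With an offset of 50 the count of called members was 4 for the inhibitor in Panc1 (2 as reported) and 2 for shIRAK1+4 in Capan1 (1 as reported). With no detection filter the count of called members was 1 for the inhibitor in Panc1 (2 as reported). With a fit of the compared arm alone the count of called members was 5 for the inhibitor in Panc1 (2 as reported), 3 for shIRAK4 in Capan1 (6 as reported), 0 for shIRAK1+4 in Capan1 (1 as reported), 8 for the line difference with the inhibitor (5 as reported) and 3 for the line difference with shIRAK4 (5 as reported). With array weights the count of called members was 5 for the inhibitor in Panc1 (2 as reported), 5 for shIRAK1+4 in Panc1 (3 as reported), 0 for shIRAK1+4 in Capan1 (1 as reported), 6 for the line difference with shIRAK1 (3 as reported), 5 for scramble against DMSO in Panc1 (3 as reported) and 8 for scramble against DMSO in Capan1 (5 as reported). With a test against a fold of 1.5 the count of called members was 0 for the inhibitor in Panc1 (2 as reported), 1 for shIRAK1 in Panc1 (6 as reported), 1 for shIRAK4 in Panc1 (4 as reported), 1 for shIRAK1+4 in Panc1 (3 as reported), 1 for shIRAK4 in Capan1 (6 as reported), 0 for shIRAK1+4 in Capan1 (1 as reported), 2 for the line difference with the inhibitor (5 as reported), 1 for the line difference with shIRAK1 (3 as reported), 2 for the line difference with shIRAK4 (5 as reported), 3 for the line difference with shIRAK1+4 (5 as reported), 2 for the DMSO groups (5 as reported), 1 for scramble against DMSO in Panc1 (3 as reported) and 2 for scramble against DMSO in Capan1 (5 as reported). Leaving out 1 array at a time gave 0 to 1 for the inhibitor in Panc1, 6 each time for the inhibitor in Capan1, 3 to 6 for shIRAK1 in Panc1, 2 to 5 for shIRAK4 in Panc1, 3 to 4 for shIRAK1+4 in Panc1, 0 to 1 for shIRAK1 in Capan1, 2 to 4 for shIRAK4 in Capan1, 0 to 1 for shIRAK1+4 in Capan1, 3 to 5 for the line difference with the inhibitor, 2 to 4 for the line difference with shIRAK1, 3 to 5 for the line difference with shIRAK4, 4 to 5 for the line difference with shIRAK1+4, 4 each time for the DMSO groups, 2 each time for scramble against DMSO in Panc1 and 2 to 3 for scramble against DMSO in Capan1. The cause of these changes was not tested. The share of all genes called under each of these settings is not given here. A moved count therefore does not show a change particular to the members. Under median scaling the median difference of all genes stood at 0.24 for shIRAK1, 0.14 for shIRAK4 and 0.22 for shIRAK1+4 in Panc1, at 0.27, 0.13 and 0.27 for the 3 hairpin line differences, and at -0.20 and 0.11 for scramble against DMSO in Panc1 and Capan1, where quantile normalization holds it between -0.04 and 0.04.

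Replicate numbers are shared between groups, but the labels tie them to no batch or culture, and the correlation of replicate 1 minus replicate 2 between compared groups was 0.0176 to 0.205, so the numbers were not taken to pair the arrays. With the replicate number as a block the count for the line difference with shIRAK1 was 5 in place of 3, and no other count moved by over 1.5 times.

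Signal limits what can be said of TNFSF10 in Panc1, of TRAF1 in Capan1 and of LTB with the inhibitor in Capan1, which lay at or under the level where detection began. A background from all rows also moved sizes of called differences by over 1.5 times in 21 of 59 cases, as did an offset of 50 in 6.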

Other observations

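The arrays of the shIRAK4 groups parted most in the ligand LTB, by 1.83 in Capan1 and 2.25 in Panc1. In Panc1, shIRAK4 replicate 1 read higher than replicate 2 in LTB (7.76 and 5.52), TNFRSF1B (8.05 and 6.64), TNFAIP2 (7.19 and 5.59) and TNFRSF10B (7.56 and 7.05), whereas BIRC3 (9.98 and 9.85) and TNFRSF12A (9.27 and 9.39) differed little. In the Panc1 shIRAK1+4 group no member parted by over 0.344.

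Outside the members, LTBR, the receptor of lymphotoxin beta, was detected on all 12 Capan1 arrays and on none of the 12 Panc1 arrays. With DMSO its level in Capan1 was at least 25.9-fold that in Panc1, and at least 3.92-fold with a background from all rows. EDAR, TNFRSF11B and RIPK3 were likewise detected on every Capan1 array and on no Panc1 array. CD70 was detected on all 12 Panc1 arrays and on 10 Capan1 arrays, at unlike levels. With DMSO its mean was 11.16 in Panc1 and 5.10 in Capan1, near the level where detection began, a fitted difference of 6.06. These genes were chosen after their values were seen.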
